A study of Homo sapiens with 24 samples.

Results

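The 8 genes MTHFD1, MTHFD1L, MTHFD2, SHMT1, SHMT2, ALDH1L2, TYMS, and FPGS encode enzymes of folate one-carbon metabolism, and they were taken by symbol from the deposited matrix of raw gene counts. All 8 were among its 26645 gene entries, and all 8 were among the 14741 genes that passed edgeR's filter on low counts. Their RNA was measured in 24 libraries from MDA-MB-468 cells (MB468), a triple-negative breast cancer cell line that requires methionine (Met), and from MDA-MB-468res-R8 cells (MB468res-R8), a single Met-insensitive clone selected from the same line by long culture in homocysteine. Both lines grew in DMEM with dialyzed serum, vitamin B12, glutamine, and cysteine. Cells at 0 h were in Met+ medium with 100 µM Met, and cells at 0.5, 2, and 12 h were in Met-Hcy+ medium, in which 370 µM DL-homocysteine (Hcy) replaced Met. Each of the 8 groups had 3 libraries, and nothing in the labels says that these came from separate cultures, so the p-values measure only the spread between these libraries, which may be technical. There was no 12 h library in Met+ medium, so time in culture and the medium switch cannot be told apart in the 12 h responses.

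Folate carries single carbon units, most of which enter when a serine hydroxymethyltransferase converts serine to glycine. The same chemistry runs in mitochondria and in the cytosol: mitochondrial SHMT2, MTHFD2, and MTHFD1L pass the carbon from serine to formate, and cytosolic MTHFD1 takes up formate for the synthesis of purines, of thymidylate, and of the methyl group that methionine synthase moves to Hcy to make Met. In cells supplied with Hcy in place of Met, that last step is a route by which Met is made, beside the methylation of Hcy by betaine, which does not use folate. Transcript levels were measured here, not enzyme amounts or fluxes.

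Stretches of promoter are shown for the genes whose RNA moved in different directions between the lines or over time: MTHFD1L and MTHFD2 of the mitochondrial branch, cytosolic MTHFD1, and TYMS. Each is the 250 bases before a RefSeq gene start on the plus strand (RefSeq, GRCh38.p14). Capitals mark 3 motifs searched on both strands: TGATGNAAT, the composite element at which ATF4 binds with C/EBP proteins, TTTNNCGC, an E2F motif, and CCAAT, the NF-Y box. No matches overlap.
MTHFD1L, chr6:150866236-150866485: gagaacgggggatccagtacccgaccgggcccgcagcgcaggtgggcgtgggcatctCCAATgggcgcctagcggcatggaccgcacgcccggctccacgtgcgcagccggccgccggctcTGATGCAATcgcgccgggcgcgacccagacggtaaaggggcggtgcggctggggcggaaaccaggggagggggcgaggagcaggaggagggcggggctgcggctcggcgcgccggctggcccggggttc
MTHFD2, chr2:74198365-74198614: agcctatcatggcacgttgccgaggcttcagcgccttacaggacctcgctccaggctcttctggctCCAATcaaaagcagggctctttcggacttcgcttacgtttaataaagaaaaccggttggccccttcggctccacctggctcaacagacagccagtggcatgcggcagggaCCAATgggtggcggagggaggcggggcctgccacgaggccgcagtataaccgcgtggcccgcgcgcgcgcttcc
MTHFD1, chr14:64388103-64388352: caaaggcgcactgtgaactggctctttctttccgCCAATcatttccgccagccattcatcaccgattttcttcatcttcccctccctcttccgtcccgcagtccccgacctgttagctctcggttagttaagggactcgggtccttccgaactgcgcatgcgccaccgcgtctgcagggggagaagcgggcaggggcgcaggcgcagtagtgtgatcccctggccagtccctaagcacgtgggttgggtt
TYMS, chr18:657403-657652: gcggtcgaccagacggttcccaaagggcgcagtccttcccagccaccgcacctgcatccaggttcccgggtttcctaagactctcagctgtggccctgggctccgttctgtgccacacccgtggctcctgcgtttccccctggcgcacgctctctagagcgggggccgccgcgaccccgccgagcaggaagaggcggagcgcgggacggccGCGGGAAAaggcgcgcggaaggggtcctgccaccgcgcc
The ATF4 element lay 129 bases before the start in the MTHFD1L window, and 0.888% of 35116 promoter windows of this length held it. The E2F motif lay 39 bases before the start of TYMS and was held by 5.92% of all windows. The NF-Y box was present 2 times in the MTHFD2 window and 1 time each in those of MTHFD1 and MTHFD1L, and 32.0% of all windows held it. RefSeq lists other starts for MTHFD1L and FPGS. A second MTHFD1L window, which begins 39 bases upstream and shares most of its letters with the one shown, held the same ATF4 element, and the other 2 did not. SHMT1 and FPGS windows held neither the ATF4 element nor the E2F motif. SHMT2 and ALDH1L2 had no window in the table and were not searched.

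The libraries held 11713037 to 36402932 gene counts each. The members were covered by 594 (TYMS) to 21557 (SHMT2) raw counts per library. Values are given as normalized counts, which are raw counts scaled by edgeR's TMM library sizes to the mean size of the 24 libraries. One library, replicate 2 of MB468 at 2 h, stood apart with a CPM (counts scaled to a common library size) of 687 for RN7SK, a small nuclear RNA without a poly(A) tail, against 2.49 to 9.81 in the other 23, and leaving it out changed no member's call. Of the 7 epithelial markers, all were present, and EGFR ranged from 2105 to 4544 CPM. Of the 9 markers of other cell types, PTPRC, CD3E, COL3A1, and ADIPOQ had at most 7 counts in any library. Their summed level was higher in MB468res-R8 (61.5 to 81.7 CPM at 0 h, 40.1 to 49.5 at 12 h) than in MB468 (38.8 to 40.5 and 22.2 to 23.4), mostly through COL1A1 (15.5 to 72.6 CPM over all libraries). Whether this has a part in the results was not tested.

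At 0 h, in Met+ medium, MB468res-R8 cells had less RNA of the mitochondrial enzymes than MB468 cells, and the other enzymes differed by at most 0.21 on the log2 scale (up to -0.51, for SHMT1, with spike-in totals as library sizes). Calls here rest on the quasi-likelihood test of edgeR, with an adjusted p (Benjamini-Hochberg, over all tested genes) under 0.05. So called were 6 of the 8 members, 5 lower in MB468res-R8 (MTHFD1L, ALDH1L2, MTHFD2, SHMT2, and SHMT1) and 1 higher (MTHFD1). In this comparison 53.5% of all tested genes were called, 27.1% lower and 26.4% higher. The 2 lines did not overlap for 7 members, as for 60.0% of all genes.

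After 12 h in Met-Hcy+ medium most members had fallen in MB468, mitochondrial ones among them. ALDH1L2, MTHFD1, TYMS, SHMT1, FPGS, and, by less, MTHFD2 fell, while MTHFD1L rose. With SHMT2, whose small rise rested on the scaling and on single libraries, all 8 members were called in MB468, 2 higher and 6 lower (1 and 6 with DESeq2's size factors or with spike-in totals), against 70.8% of all genes, 36.1% higher and 34.7% lower. For all 8 the 0 h and 12 h libraries did not overlap, as for 74.9% of all genes. In MB468res-R8 at 12 h, 5 members were called (61.3% of all genes, 30.2% higher and 31.1% lower): MTHFD1 rose, and ALDH1L2, SHMT2, MTHFD2, and SHMT1 fell. With spike-in totals as library sizes, ALDH1L2 and SHMT2 were the 2 called. The groups were separate for 6 members, as for 64.6% of all genes. The lines were also compared directly at 12 h, where 7 members were called (73.1% of all genes), 3 higher (33.9%) and 4 lower (39.2%) in MB468res-R8. They did not overlap for 7 members (75.3% of all genes).

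**Figure D1:**
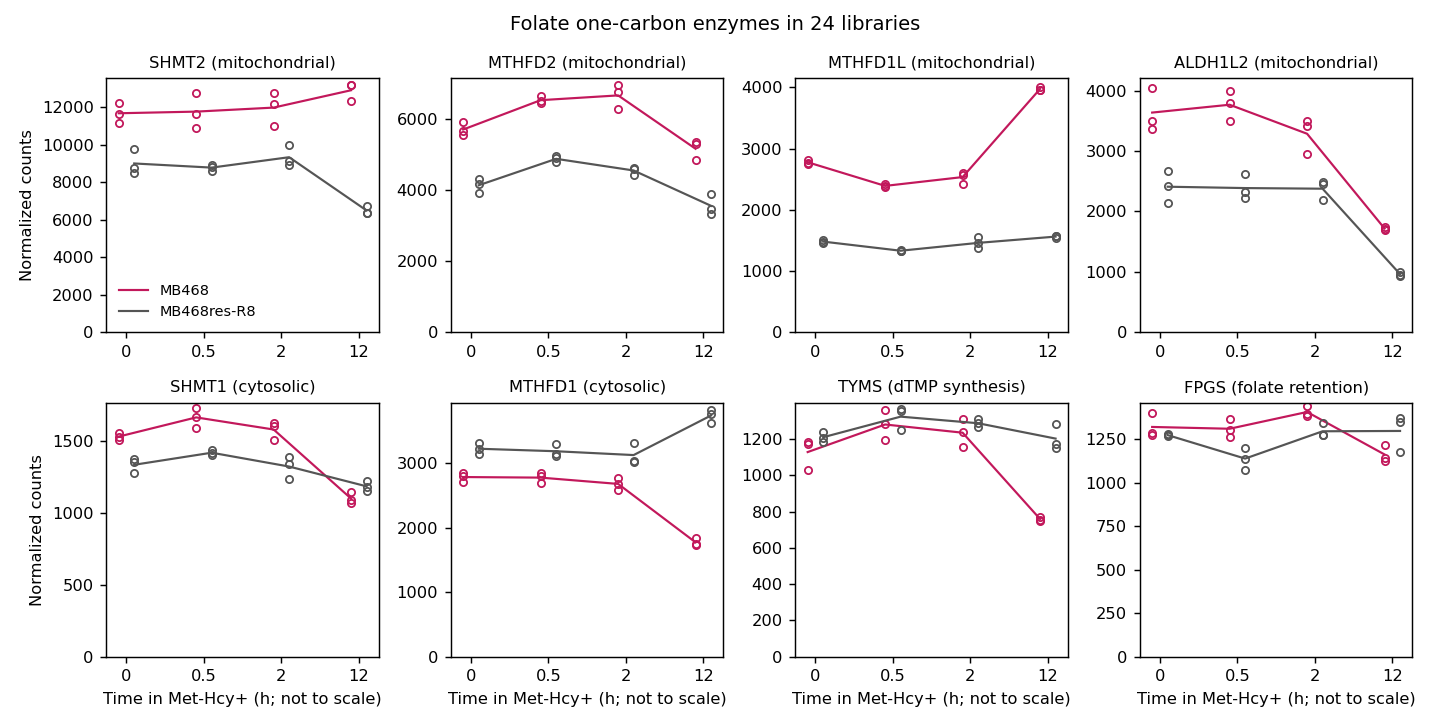
Normalized counts (y axis, from 0) of the 8 enzymes in every library by hours in Met-Hcy+ medium (x axis, not to scale; 0 h is Met+ medium), with MB468 in magenta, MB468res-R8 in gray, circles for libraries, and lines through the means of 3. At 12 h MTHFD1L stood at 3954 to 4011 in MB468 and at 1541 to 1572 in MB468res-R8, and MTHFD1 at 1722 to 1836 and 3620 to 3820.

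Levels of different genes can be set side by side only per length, here as CPM per kb of exon in the annotation (GENCODE 44). SHMT2 was the most abundant of the 8 in every group, at 112 ± 5.26 CPM per kb (SD, n = 3) in MB468 at 0 h. MTHFD1L followed at 25.0, MTHFD2 at 21.9, TYMS at 20.5, ALDH1L2 at 16.8, FPGS at 14.8, SHMT1 at 9.58, and MTHFD1 at 7.04 CPM per kb. MTHFD2 and TYMS overlapped between libraries, as did TYMS and ALDH1L2 and also ALDH1L2 and FPGS, and the other neighbors in this order did not. The order below SHMT2 depends on the gene model: MTHFD1 was last over its 17357 bases of joined exons and the third, at 38.8 CPM per kb, over the 3154 bases of its canonical transcript. Over canonical transcripts ALDH1L2 was last of the 8 in every group, at 5.68 CPM per kb in MB468res-R8 at 12 h. Over joined exons it was last only in that group, at 4.45 CPM per kb.

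Among the mitochondrial enzymes, SHMT2 (chromosome 12, 57229573 to 57234935) is the hydroxymethyltransferase that takes the carbon from serine. In normalized counts, SHMT2 was at 11136, 11633, and 12233 in the 3 MB468 libraries at 0 h and at 13169, 12333, and 13182 at 12 h. In MB468res-R8 it was at 8486, 9740, and 8747 at 0 h and at 6725, 6353, and 6376 at 12 h. Every MB468res-R8 library was below every MB468 library at both times, and the gap was wider at 12 h, where no MB468res-R8 library reached the lowest one of 0 h. The log2 difference between the lines (MB468res-R8 minus MB468) was -0.38 (SE 0.0584, adjusted p = 4.41e-06, edgeR's quasi-likelihood test) at 0 h and -0.99 (SE 0.0588, adjusted p = 1.67e-14) at 12 h. SHMT2 fell by 0.47 on the log2 scale over 12 h in MB468res-R8 (SE 0.0590, adjusted p = 1.11e-07, edgeR). The rise of 0.15 in MB468 (SE 0.0578, adjusted p = 0.0274, edgeR) was not called with DESeq2's size factors (0.12, adjusted p = 0.0695), with DESeq2's test (0.12), with a spike-in factor as a covariate (0.09), or with at least 10 counts required in every library (0.13), and it turned to -0.09 with spike-in totals as library sizes. It was also not called by edgeR without MB468 0 h replicate 1 (0.11, adjusted p = 0.135) or 2 (0.14), or without MB468 12 h replicate 1 (0.12) or 3 (0.12).

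MTHFD2 (chromosome 2, 74186172 to 74217565), the mitochondrial dehydrogenase and cyclohydrolase that follows SHMT2, had 5547, 5666, and 5925 normalized counts in MB468 at 0 h and 5292, 5367, and 4849 at 12 h. In MB468res-R8 the MTHFD2 values were 4170, 4318, and 3934 at 0 h and 3319, 3895, and 3468 at 12 h. The lines were separate at both times, and both ended slightly below their 0 h level. The line difference was -0.46 (SE 0.0478, adjusted p = 7.28e-11, edgeR) at 0 h and -0.54 (SE 0.0477, adjusted p = 3.74e-13, edgeR) at 12 h. The 12 h response was -0.14 in MB468 (SE 0.0470, adjusted p = 0.00641, edgeR) and -0.22 in MB468res-R8 (SE 0.0484, adjusted p = 1.45e-04, edgeR). Without MB468 12 h replicate 3 the former was -0.11 and was not called (adjusted p = 0.0602, edgeR). The difference between both responses was -0.08 (95% interval -0.21 to 0.06).

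MTHFD1L (chromosome 6, 150865679 to 151101887), the mitochondrial synthetase that releases formate, showed the largest difference between the lines among the 8. Its MB468 libraries had 2754, 2806, and 2770 normalized counts at 0 h and 3954, 4011, and 3960 at 12 h. Its MB468res-R8 libraries had 1504, 1472, and 1463 at 0 h and 1572, 1572, and 1541 at 12 h. The 3 libraries of a group lay close together, and MB468 at 12 h stood above every other group. MTHFD1L rose 1.43-fold in MB468 (log2 0.52, SE 0.0402, adjusted p = 9.58e-15, edgeR's quasi-likelihood test). In MB468res-R8 the log2 response was 0.08 (95% interval -0.01 to 0.16, adjusted p = 0.133, edgeR), although the 0 h and 12 h libraries did not overlap. MB468res-R8 had 0.533 of the MB468 level at 0 h (adjusted p = 4.11e-21, edgeR) and 0.393 of it at 12 h (adjusted p = 1.03e-27, edgeR).

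ALDH1L2 (chromosome 12, 105019784 to 105107643), the mitochondrial enzyme that oxidizes formyl-tetrahydrofolate to carbon dioxide with the formation of NADPH, fell most of the 8 in both lines. In MB468 it went from 3363, 3496, and 4044 normalized counts at 0 h to 1697, 1740, and 1710 at 12 h. In MB468res-R8 it went from 2132, 2676, and 2414 to 941, 1001, and 937. All 12 h libraries of a line were below all its 0 h libraries, and the spread between libraries at 0 h was wider than at 12 h. The level at 12 h was 0.473 of that at 0 h in MB468 (log2 -1.08, SE 0.0882, adjusted p = 1.34e-09, edgeR) and 0.399 in MB468res-R8 (log2 -1.32, SE 0.0959, adjusted p = 3.81e-10, edgeR). The difference between these responses was -0.24 (95% interval -0.50 to 0.01, adjusted p = 0.120, edgeR), so an equal fall and a deeper fall in MB468res-R8 are both within the interval. With no low-count filter that difference was called (-0.23, adjusted p = 0.00355, edgeR).

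Of the cytosolic enzymes, MTHFD1 (chromosome 14, 64388031 to 64463457) joins formate to tetrahydrofolate and carries out the 2 steps that follow. MTHFD1 had 2704, 2844, and 2795 normalized counts in MB468 at 0 h and 1753, 1836, and 1722 at 12 h. In MB468res-R8 it had 3209, 3132, and 3315 at 0 h and 3620, 3760, and 3820 at 12 h. It fell in the one line and rose in the other, with no overlap between the times in either. MTHFD1 fell to 0.636 of its 0 h level in MB468 (log2 -0.65, SE 0.0440, adjusted p = 1.18e-16, edgeR) and rose 1.16-fold in MB468res-R8 (log2 0.21, SE 0.0427, adjusted p = 3.65e-05, edgeR). With spike-in totals as library sizes the rise in MB468res-R8 was 0.24 and was not called (adjusted p = 0.130, edgeR). The line difference went from 0.21 (SE 0.0433, adjusted p = 7.36e-05, edgeR), which turned to -0.10 with spike-in totals, at 0 h to 1.08 (SE 0.0435, adjusted p = 5.51e-24, edgeR) at 12 h.

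SHMT1 (chromosome 17, 18327860 to 18363563), the cytosolic hydroxymethyltransferase, had 1525, 1556, and 1506 normalized counts in MB468 at 0 h and 1065, 1089, and 1142 at 12 h. In MB468res-R8 it had 1350, 1274, and 1377 at 0 h and 1148, 1182, and 1222 at 12 h. MB468 was above MB468res-R8 at 0 h and below it at 12 h, by a narrow margin. SHMT1 fell to 0.718 of its level in MB468 (log2 -0.48, SE 0.0496, adjusted p = 3.32e-11, edgeR) and to 0.888 in MB468res-R8 (log2 -0.17, SE 0.0509, adjusted p = 0.00358, edgeR). The latter was not called without MB468res-R8 12 h replicate 1 (-0.13, adjusted p = 0.0557, edgeR). The line difference was -0.20 (adjusted p = 8.81e-04, edgeR) at 0 h and 0.11 (adjusted p = 0.0544, edgeR) at 12 h. The 12 h value was called with DESeq2's size factors (0.13), with DESeq2's test (0.13), in a fit of only the groups compared (0.15), and without MB468 12 h replicate 3 (0.14) or MB468res-R8 12 h replicate 1 (0.17).

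TYMS (chromosome 18, 657653 to 673578) is thymidylate synthase, which uses methylene-tetrahydrofolate to make the thymidine nucleotide. Its normalized counts were 1172, 1180, and 1030 in MB468 at 0 h and 754, 750, and 771 at 12 h. In MB468res-R8 they were 1184, 1207, and 1236 at 0 h and 1172, 1285, and 1148 at 12 h. The lines were close at 0 h and far apart at 12 h. TYMS fell to 0.670 of its level in MB468 (log2 -0.58, SE 0.0593, adjusted p = 2.54e-11, edgeR), and its response in MB468res-R8 was -0.01 (95% interval -0.12 to 0.11). The line difference was 0.09 (adjusted p = 0.186, edgeR) at 0 h and 0.66 (SE 0.0591, adjusted p = 4.59e-13, edgeR) at 12 h. The gene ENOSF1 lies on the other strand and covers 967 of the exon bases of TYMS, or 39.9%. The library kit does not mark strand, so reads in the shared stretch cannot be told apart. ENOSF1 had 1652 normalized counts on average in MB468 at 0 h and 1086 at 12 h (log2 -0.61, adjusted p = 4.48e-14, edgeR), and its response in MB468res-R8 was -0.07 (adjusted p = 0.256, edgeR). Smaller stretches of other members are shared, up to 11.6% of the exon bases of MTHFD2 with SLC4A5.

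FPGS (chromosome 9, 127794597 to 127814327) adds glutamates to folates, which keeps them in the cell. It varied least of the 8, with 1404, 1286, and 1275 normalized counts in MB468 at 0 h and 1144, 1126, and 1220 at 12 h. In MB468res-R8 it had 1274, 1283, and 1267 at 0 h and 1372, 1175, and 1349 at 12 h. The MB468 libraries of both times were separate, and those of MB468res-R8 were not. The 12 h response was -0.18 in MB468 (SE 0.0549, adjusted p = 0.00311, edgeR) and 0.03 in MB468res-R8 (95% interval -0.08 to 0.14). The line difference was -0.05 (95% interval -0.16 to 0.06) at 0 h, -0.36 and called with spike-in totals, and 0.16 (adjusted p = 0.00910, edgeR), 0.10 and not called with spike-in totals, at 12 h, where the lines overlapped.

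Of the member calls at 0.5 h, only that of MTHFD1L in MB468 was kept with spike-in totals as library sizes. That setting also called fewer of all genes at 0.5 h, 3287 against 5000 in MB468 and 2023 against 4967 in MB468res-R8. The spike-in share differed between libraries of a group, at 0.214%, 0.277%, and 0.288% in MB468res-R8 at 0.5 h. At 0.5 h, 3 members were called in MB468 (33.9% of all genes) and 3 in MB468res-R8 (33.7%), but with spike-in totals 1 (MTHFD1L) and 0. MTHFD2 was called higher and MTHFD1L lower in both lines. MTHFD2 reached 6504, 6450, and 6666 normalized counts in MB468 and 4798, 4953, and 4907 in MB468res-R8 at 0.5 h, above all 0 h libraries of the same line. MTHFD1L was at 2366, 2384, and 2420 in MB468 and at 1333, 1320, and 1339 in MB468res-R8, below all 0 h libraries. On the log2 scale the MTHFD2 response was 0.20 in MB468 (adjusted p = 0.00104, edgeR), which became -0.02 with spike-in totals, and 0.24 in MB468res-R8 (adjusted p = 1.08e-04, edgeR), which was 0.28 and not called with spike-in totals (adjusted p = 0.144, edgeR). The MTHFD1L response was -0.22 in MB468 (adjusted p = 5.23e-05, edgeR) and -0.15 in MB468res-R8 (adjusted p = 0.00639, edgeR), which was -0.11 and not called with spike-in totals. So the rise of MTHFD1L in MB468 at 12 h followed a fall at 0.5 h. TYMS at 0.5 h in MB468 was 0.17 higher (adjusted p = 0.0251, edgeR) and -0.04 with spike-in totals, and was not called without MB468 0 h replicate 3 (0.10) or MB468 0.5 h replicate 2 (0.15) or 3 (0.12). FPGS at 0.5 h in MB468res-R8 was at -0.16 (adjusted p = 0.0216, edgeR) and was not called without MB468res-R8 0 h replicate 2 (-0.16) or 0.5 h replicate 1 (-0.13). The groups were separate for 4 members in MB468 (43.4% of all genes) and for 5 in MB468res-R8 (45.0%).

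At 2 h, 2 members were called in MB468, where 16.3% of all genes were. With spike-in totals 7 were called, all lower and all but MTHFD2, in a fit that moved the median of all genes to -0.42. MTHFD2 was at 6289, 6764, and 6970 normalized counts there (log2 response 0.23, adjusted p = 4.72e-04, edgeR, and -0.20 with spike-in totals). MTHFD1L was at 2429, 2602, and 2572 (log2 response -0.13, adjusted p = 0.0231, edgeR), and was not called without MB468 0 h replicate 2 (-0.13) or MB468 2 h replicate 1 (-0.10). In MB468res-R8 edgeR called 0 members at 2 h (4.37% of all genes), 1 had an unadjusted p under 0.05 (MTHFD2, log2 0.14), and DESeq2 called 0. The groups were separate for 2 members in MB468 (29.2% of all genes) and for 2 in MB468res-R8 (17.8%). Between the lines, 7 members were called at 0.5 h (49.0% of all genes, 24.2% higher and 24.8% lower) and 6 at 2 h (56.1%, 27.4% higher and 28.7% lower), in each case 1 higher in MB468res-R8, MTHFD1 (0.20 and 0.22, not called with spike-in totals), and the rest lower. With spike-in totals, 4 and 3 members were called. Both groups were separate for 7 members at 0.5 h (54.8% of all genes) and for 7 at 2 h (58.5%). FPGS was the member called at 0.5 h (-0.20) but not at 2 h (-0.12), and without MB468res-R8 0.5 h replicate 1 it was at -0.15 and not called at 0.5 h (adjusted p = 0.0503, edgeR). The change between 0.5 and 2 h was not tested.

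The design also allows the responses of both lines to be compared with each other, with the MB468 response subtracted from the MB468res-R8 response. At 0.5 and 2 h, edgeR and DESeq2 each called 0 members (2.90% and 5.07% of all genes), and 0 had an unadjusted p under 0.05. At 12 h, 6 of 8 were called (56.5% of all genes), 4 higher (26.2%) and 2 lower (30.3%). MTHFD1 had the largest difference of responses, 0.87 (SE 0.0613, adjusted p = 1.99e-15, edgeR's quasi-likelihood test), and TYMS was also higher, at 0.57 (SE 0.0833, adjusted p = 2.03e-07). SHMT1 was at 0.31 (SE 0.0711, adjusted p = 3.14e-04, edgeR) and FPGS at 0.21 (SE 0.0782, adjusted p = 0.0189, edgeR). The 2 that were lower in MB468res-R8 were the mitochondrial SHMT2 at -0.62 (SE 0.0825, adjusted p = 3.88e-07, edgeR) and MTHFD1L at -0.44 (SE 0.0597, adjusted p = 3.87e-08, edgeR). For FPGS, leaving out MB468 0 h replicate 1 gave 0.17 and no call (adjusted p = 0.0924, edgeR). Spike-in totals moved the difference to -0.36 for SHMT2 and -0.18 for MTHFD1L, and neither was then called, and 4 members were higher and 0 lower.

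**Figure D2:**
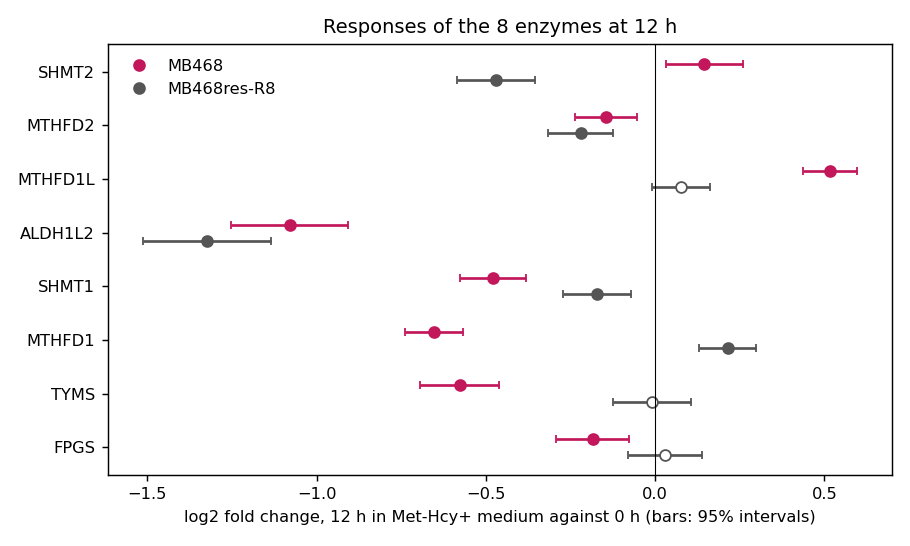
log2 fold change at 12 h in Met-Hcy+ medium against 0 h (x axis) for the 8 enzymes in MB468 (magenta) and MB468res-R8 (gray), with bars for 95% intervals, filled circles for an adjusted p under 0.05, and open circles for the rest. MTHFD1L, at 0.52, stood highest in MB468 and ALDH1L2 lowest in both lines, and MTHFD1 lay on either side of 0, while the sign of SHMT2 in MB468 (0.15) turned to -0.09 with spike-in totals as library sizes.

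Ratios of raw counts within a library do not depend on how libraries are scaled. These ratios were chosen after the values were seen. The ratio of mitochondrial MTHFD1L to cytosolic MTHFD1 was 1.02, 0.987, and 0.991 in MB468 at 0 h and 2.26, 2.19, and 2.30 at 12 h, a 2.25-fold rise. In MB468res-R8 it was 0.468, 0.470, and 0.441 at 0 h and 0.434, 0.418, and 0.403 at 12 h (0.910 of the former). At 12 h it was thus above every 0 h value in MB468 and below every 0 h value in MB468res-R8. The ratio of SHMT2 to SHMT1 was 7.63 ± 0.432 (SD, n = 3) at 0 h and 11.7 ± 0.551 at 12 h in MB468 (1.54-fold), and 6.76 ± 0.765 and 5.48 ± 0.333 in MB468res-R8 (0.813-fold). The ratio of MTHFD2 to MTHFD1 was 2.05 ± 0.0637 at 0 h and 2.92 ± 0.102 at 12 h in MB468, and 1.29 ± 0.0963 and 0.953 ± 0.0714 in MB468res-R8. In these 3, of which 2 share MTHFD1, the mitochondrial enzyme gained on its cytosolic partner in MB468 and lost in MB468res-R8, with no overlap between 0 h and 12 h. MTHFD2 itself fell in MB468 (log2 -0.14), by less than MTHFD1 (-0.65). The gain did not extend to the mitochondrial ALDH1L2, which fell in MB468 (-1.08) by more than MTHFD1 or SHMT1 (-0.48). Within the mitochondrial branch, ALDH1L2 to MTHFD1L fell in both lines, from 1.31 ± 0.131 at 0 h to 0.432 ± 0.00225 for MB468 and from 1.63 ± 0.201 at 0 h to 0.615 ± 0.0198 for MB468res-R8. Each of these 8 changes of a ratio had an exact two-sided permutation p of 0.1, the smallest that 3 against 3 libraries allow.

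**Figure D3:**
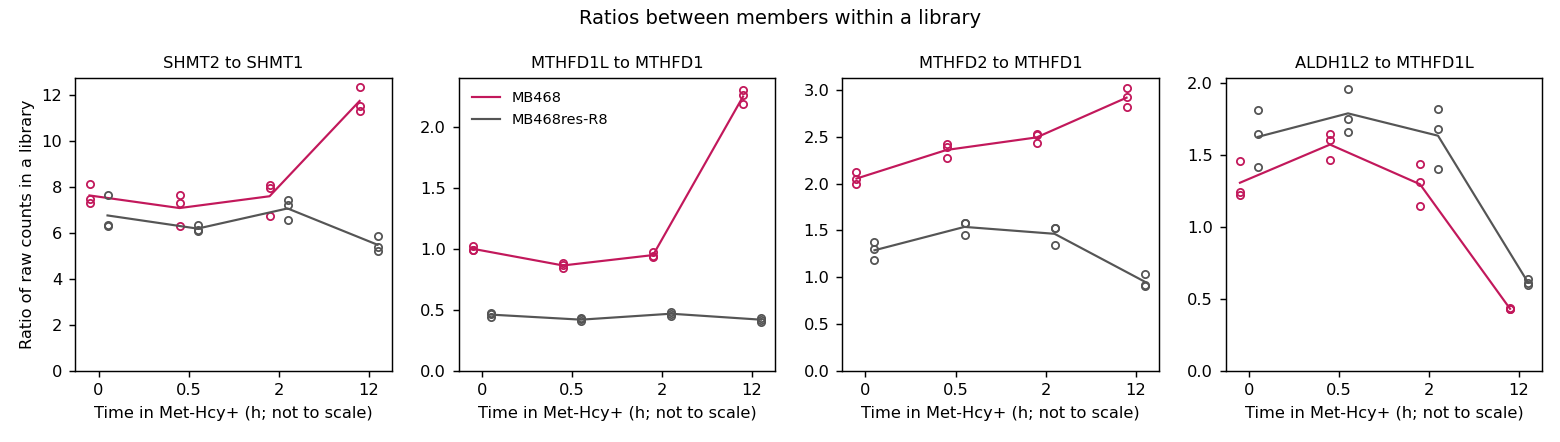
Ratios of raw counts between members within each library (y axes, from 0) by hours in Met-Hcy+ medium (x axis, not to scale), with MB468 in magenta, MB468res-R8 in gray, circles for libraries, and lines through the means of 3. MTHFD1L to MTHFD1 stood at 2.19 to 2.30 in MB468 at 12 h and at 0.403 to 0.434 in MB468res-R8, while ALDH1L2 to MTHFD1L fell in both lines.

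Of 21 further genes of folate metabolism and transport, 17 were tested, and ALDH1L1, FTCD, SARDH, and FOLR2 had at most 6 counts in any library. At 0 h, 1 of the 17 was higher and 9 were lower in MB468res-R8 (0 and 12 with spike-in totals), with a median log2 difference of -0.14 against 0.00 for all genes. Of all genes, 26.4% were higher and 27.1% lower in this comparison. Among the 17, the gene that was higher was ATIC (0.45), an enzyme of purine synthesis, and FOLR1 (-0.96), MTFMT (-0.61), and SLC46A1 (-0.59) were the lowest.

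At 12 h, 4 of these genes were higher and 6 lower in MB468 (2 and 6 with spike-in totals), although their median response was positive (0.05 against 0.01 for all genes, -0.19 with spike-in totals). Of all genes, 36.1% were higher and 34.7% lower there. In MB468res-R8, 8 were higher and 4 lower, where 30.2% of all genes were higher and 31.1% lower (median 0.15 against -0.02). These counts too depend on the scaling: with spike-in totals MTR, 1 of the 8, was not called. Of all genes, 5887 were then called in MB468res-R8 at 12 h, against 9036 with TMM library sizes. Whether these genes differ as a set from all genes was not tested. The difference of responses was called higher for 9 and lower for 4 (9 and 1 with spike-in totals). Of all genes, 26.2% were called higher and 30.3% lower in that difference. Its median was 0.36 for the folate genes against -0.05 for all genes. MTR, the methionine synthase, had 1541, 1565, and 1400 normalized counts in MB468 at 0 h and 963, 1065, and 938 at 12 h. In MB468res-R8, MTR had 1312, 1356, and 1429 at 0 h and 1603, 1624, and 1595 at 12 h. Like MTHFD1, it fell in MB468 (log2 -0.61, SE 0.0560, adjusted p = 1.02e-12, edgeR) and rose in MB468res-R8 (log2 0.24, SE 0.0557, adjusted p = 3.18e-04, edgeR), and with spike-in totals the rise of 0.26 was not called (adjusted p = 0.110, edgeR). MTRR, which reactivates methionine synthase, rose in both lines (log2 0.99 in MB468 and 0.68 in MB468res-R8).

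Among the folate carriers the responses differed for some members. SLC25A32, the mitochondrial folate carrier, rose by 0.18 on the log2 scale in MB468 (-0.05 and not called with spike-in totals) and by 0.60 in MB468res-R8. SLC19A1, the reduced folate carrier, rose by 0.17 (-0.06 and not called with spike-in totals) and 0.79. The differences of these responses were called (0.42 and 0.61). SLC46A1, the proton-coupled folate transporter, was called in neither line (0.19 and -0.02). FOLR1, a folate receptor with at most 91.9 normalized counts on average in a group at 0 h, fell by 1.49 and 1.07. The 4 glycine cleavage genes did not move as one. GCSH, a subunit of the glycine cleavage system, fell by 0.91 in MB468 (adjusted p = 4.05e-13, edgeR) and rose by 0.55 in MB468res-R8 (adjusted p = 1.21e-07, edgeR). GLDC, the decarboxylase, was at 0.05 in MB468 and fell by 0.51 in MB468res-R8. AMT was at -0.49 in MB468, which was not called, and fell by 1.01 in MB468res-R8. Its level was low, at 27.8, 32.4, and 36.6 normalized counts in MB468res-R8 at 0 h and 12.5, 18.2, and 17.0 at 12 h. DLD fell by 0.40 in MB468 and was at 0.01 in MB468res-R8. MTHFD2L, the isozyme of MTHFD2, rose by 0.75 in MB468, and its response in MB468res-R8 was 0.15 (adjusted p = 0.321, edgeR). Of the enzymes that use formyl-tetrahydrofolate for purines, ATIC fell by 0.63 in MB468 and was at 0.03 in MB468res-R8, and GART was at -0.02 in MB468 and rose by 0.31 in MB468res-R8.

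**Figure D4:**
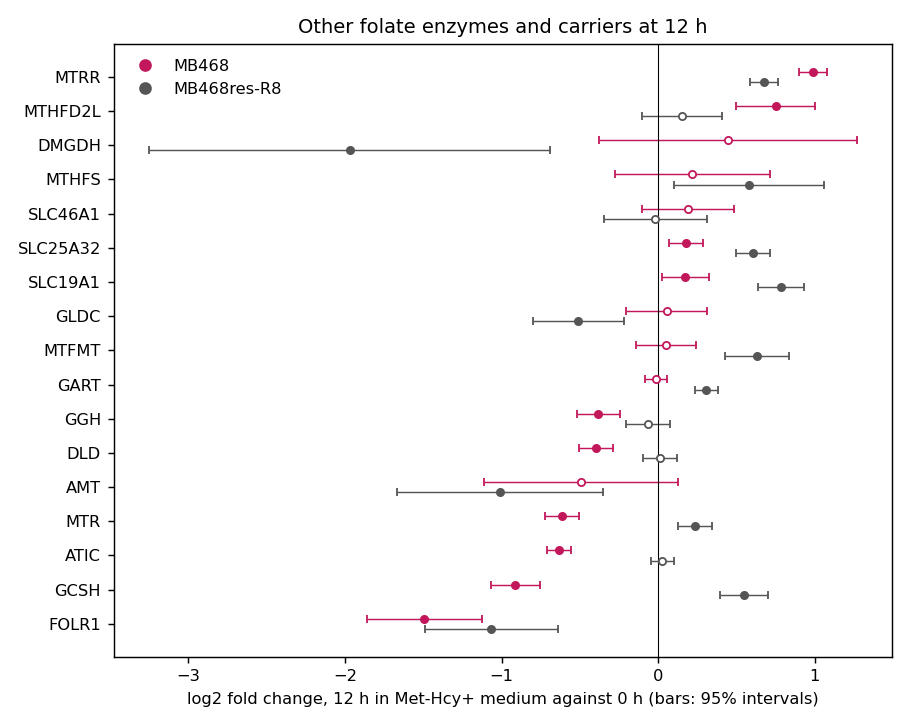
log2 fold change at 12 h in Met-Hcy+ medium against 0 h (x axis) for 17 other folate genes tested, in MB468 (magenta) and MB468res-R8 (gray), with bars for 95% intervals, filled circles for an adjusted p under 0.05, and open circles for the rest. MTRR rose and FOLR1 fell in both lines, whereas MTR (-0.61 and 0.24) and GCSH (-0.91 and 0.55) fell in MB468 and rose in MB468res-R8.

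Genes of 4 neighboring pathways were counted at 12 h in the same fit, since the members have partners in each. Beside these counts stand the 70.8% of all genes called in MB468 (36.1% higher, 34.7% lower) and the 61.3% called in MB468res-R8 (30.2% higher, 31.1% lower), with medians of 0.01 and -0.02. Of 5 genes of serine synthesis and uptake, 3 were higher and 1 lower in MB468 (1 and 1 with spike-in totals; median 0.16, and -0.07 with spike-in totals), and all 5 were lower in MB468res-R8 (median -0.68). PHGDH, the first enzyme of serine synthesis, fell by 0.73 in MB468 and by 0.72 in MB468res-R8. The serine transporter gene SLC1A4 rose by 0.60 in MB468 and fell by 1.30 in MB468res-R8, and PSAT1 rose by 0.16 (-0.07 and not called with spike-in totals) and fell by 0.62. Of 6 genes of purine synthesis, 1 was higher and 3 lower in MB468 (0 and 4 with spike-in totals; median -0.13), and 6 were higher in MB468res-R8 (median 0.44). PAICS fell by 0.53 in MB468 and rose by 0.55 in MB468res-R8.

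Of 16 known targets of ATF4, a transcription factor of amino acid stress, 11 were higher and 4 lower in MB468 (median 0.92), and 2 were higher and 12 lower in MB468res-R8 (median -0.87). CHAC1, which degrades glutathione, rose by 4.40 in MB468 and fell by 0.34 in MB468res-R8 (not called with spike-in totals), and SESN2 rose by 3.05 and was at -0.17. In contrast, ASNS fell by 0.95 and 1.15, and PCK2 by 1.28 and 1.36. For ASNS in MB468 the paper reports the other direction by quantitative PCR, a rise in Met-Hcy+ medium relative to a control kept in Met+ medium. The falls given here are relative to 0 h, with no Met+ library at 12 h to compare. Why the directions differ was not tested. MTHFD1L was higher at 12 h in MB468, as were CHAC1 and SESN2, but not at the early times. In MB468, CHAC1 was at 3.46 and 2.95 and SESN2 at 2.85 and 2.29 at 0.5 and 2 h, when MTHFD1L was at -0.22 and -0.13. Other listed targets did not rise early in MB468: at 0.5 h ASNS was at 0.02 and PCK2 at 0.01. ATF5 averaged 789, 503, 646, and 1137 normalized counts in MB468 at 0, 0.5, 2, and 12 h. SLC7A5 averaged 43854, 29435, 47054, and 82730, so both were lowest at 0.5 h and highest at 12 h, as MTHFD1L was. CHAC1 and SESN2 also rose in MB468res-R8 at 0.5 h. There CHAC1 went from 228, 243, and 225 normalized counts at 0 h to 921, 945, and 1039, and SESN2 from 358, 358, and 378 to 952, 1048, and 1120. ALDH1L2 fell in both lines at 12 h, as did ASNS and PCK2. MTHFD2, SHMT2, ALDH1L2, and MTHFD1L are themselves known as genes that ATF4 can act on, and they did not move as one. Their responses in MB468 at 12 h were -0.14, 0.15 (-0.09 with spike-in totals), -1.08, and 0.52. Whether ATF4 has a part in any of these responses was not tested. Of 20 genes of the S phase, 3 were higher and 14 lower in MB468 (1 and 16 with spike-in totals, 1 and 14 with DESeq2's size factors; median -0.29), and 7 were higher and 6 lower in MB468res-R8 (3 and 2 with spike-in totals; median 0.05). MCM6, a subunit of the replicative helicase, fell by 1.06 in MB468 and was at 0.00 in MB468res-R8, and TK1, the thymidine kinase, fell by 0.92 and 0.34. FEN1 went the other way in MB468, from 3146, 3133, and 3062 normalized counts at 0 h to 6279, 6279, and 6419 at 12 h. The fall of TYMS and MTHFD1 in MB468 thus went with a fall of most S-phase genes, and the part of the cell cycle in it was not tested.

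The genes whose pattern over the 8 groups came closest to each member were found among 9874 genes by the root mean square (RMS) difference of group means of log2 CPM, each gene centered on its own mean. ALDH1L2, which ranged over 1.97 log2 units, was nearest to ACSS2 (RMS 0.0710) and PCK2 (0.0737). MTHFD1, which ranged over 1.08, was nearest to PARP1 (RMS 0.0351) and VCP (0.0417). TYMS was nearest to SUCLG1 (RMS 0.0398) and FKBP3, and MTHFD1L to SCAF8 (RMS 0.0663) and BTBD6. The other nearest genes were ATXN2L and RILPL2 for MTHFD2, CRNDE and COPG2 for SHMT1, MUM1 and NTN1 for SHMT2, and CYC1 and LARP7 for FPGS. Among the members themselves the closest pairs were MTHFD1 with TYMS (RMS 0.158), SHMT2 with MTHFD2 (RMS 0.161), and SHMT1 with FPGS (RMS 0.163), and no other member came closer to MTHFD1L than SHMT2 (RMS 0.333). The RMS was not scaled to a gene's range, and FPGS ranged over only 0.306 log2 units and SHMT1 over 0.597. For that pair a small RMS therefore does not show a shared pattern.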

How the data were processed

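Poly(A) RNA with added ERCC spike-ins was sequenced as single-end reads of 100 bp from 24 libraries. The authors aligned them with HISAT2 (2.1.0) to a reference of GRCh38/hg38 plus the ERCC sequences, and featureCounts (Subread 1.5.3, versions per the submitters' processing notes) gave the deposited raw counts per gene. A deposited signal table holds counts that the authors divided by DESeq2 size factors, for 0, 2, and 12 h, and it served only as an alternative. A deposited table of the authors' DESeq2 results (log2 fold change, SE, statistic, p, and adjusted p) was not used. No sample column was left out.

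Spike-ins (92 entries) were left out of library sizes. Counts were analyzed in R 4.3.3 with edgeR 4.0.16: the default filter (at least 10 counts, 15 in total), TMM factors, 1 mean for each of the 8 groups, a robust quasi-likelihood fit, and Benjamini-Hochberg adjustment over 14741 genes at 0.05. limma 3.58.1 and DESeq2 1.42.0 were also loaded, the latter for an alternative test. Intervals are 95% normal intervals from the standard error of a log2 difference. For ratios, exact permutation tests (two-sided) were used. Gene positions and lengths are from GENCODE 44 (GRCh38), whose release need not be that of the authors, and promoters from RefSeq. The pipeline was tested on simulated data. Groups come from the sample titles and treatments. The 8 members, the gene lists, and the tests were chosen with earlier results of these data known. Genes named are all members, MTR, GART, and SLC25A32, up to 3 called genes per direction of each list by log2 difference with a mean of at least 1 CPM (at 0 h and 12 h), genes that overlap a member, RN7SK, and the 2 genes nearest to each member. Not all genes the rule allows are described, and some genes of the lists are not reported here and stand outside their counts.

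Alternatives were DESeq2's size factors and its test, library sizes from spike-in totals, a covariate from the spike-ins, 2 other low-count filters, a fit of only the groups compared, a replicate block, a threshold of 0.01, ratios of the normalized counts as deposited, and the fits without 1 library each. The length of the canonical transcript and the ratios without each library were added after the data were seen. Precision is limited by the spread between libraries and not only by depth. The members had 594 (TYMS) to 21557 (SHMT2) counts per library, yet the SE of the 0 h line difference was 0.0587 for TYMS and 0.0584 for SHMT2.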

Additional observations from a re-analysis of the deposited data

Results flagged for a closer look

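The 12 h responses of both lines differed for 6 of the 8 enzymes by the test of the difference itself, with the MB468 response subtracted from the MB468res-R8 response (quasi-likelihood test of edgeR, Benjamini-Hochberg adjusted, 56.5% of all genes called). MTHFD1 was at 0.87, from a response of -0.65 in MB468 and 0.21 in MB468res-R8. TYMS was at 0.57 (-0.58 and -0.01), SHMT1 at 0.31 (-0.48 and -0.17), and FPGS at 0.21 (-0.18 and 0.03). SHMT2 was at -0.62 (0.15 and -0.47) and MTHFD1L at -0.44 (0.52 and 0.08). Without MB468 0 h replicate 1 the FPGS difference was 0.17 and was not called. Groups of 3 libraries were too small for the range test of a single outlying value.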

How the results depend on the processing

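Spike-in totals as library sizes moved the median log2 difference of all genes to -0.31 between the lines at 0 h, to -0.20, -0.42, and -0.23 for the responses of MB468 at 0.5, 2, and 12 h, and to 0.26, 0.38, and 0.20 for the differences of responses (in MB468res-R8 it stayed within 0.04), and the members shifted with it. Every change of direction came under this setting. These were MTHFD1 (-0.10) and TYMS (-0.21) between the lines at 0 h; MTHFD2 (-0.022), SHMT1 (-0.10), SHMT2 (-0.21), ALDH1L2 (-0.17), and TYMS (-0.042) in MB468 at 0.5 h; MTHFD2 (-0.20), SHMT1 (-0.38), SHMT2 (-0.38), TYMS (-0.30), and FPGS (-0.33) in MB468 at 2 h; SHMT2 (-0.092) in MB468 at 12 h; and MTHFD1 (0.031) at 0.5 h and FPGS (-0.020) at 2 h in MB468res-R8. In the differences of responses they were MTHFD1 (0.25), SHMT1 (0.23), SHMT2 (0.22), ALDH1L2 (0.19), TYMS (0.21), and FPGS (0.11) at 0.5 h, MTHFD2 (0.29), SHMT1 (0.31), TYMS (0.34), and FPGS (0.31) at 2 h, and MTHFD2 (0.19) and ALDH1L2 (0.015) at 12 h. A change of sign called in neither fit was counted only where the value moved by at least 1 SD. The number of members called under spike-in totals was 4 between the lines at 0.5 h, 3 at 2 h, 1 in MB468 at 0.5 h and 7 at 2 h, and 0 in MB468res-R8 at 0.5 h and 2 at 12 h. An adjusted p under 0.01 left 1 in MB468 at 2 h. Leaving out each library in turn gave 1 to 2 members there, 6 to 8 in MB468 at 12 h, 4 to 5 in MB468res-R8 at 12 h, and 5 to 6 for the difference at 12 h. Of 792 values without 1 library, 774 stayed the same, 15 lost the call, and 3 gained one. Of 904 under the other settings, 845 stayed the same, 21 lost the call, 8 gained one, 27 changed direction, and 3 moved by at least 1 SD. Staying the same meant keeping direction and call. The former set includes ratios between members, and the latter includes ratios of the deposited normalized counts. Neither kind of ratio has a call, and for them it meant a shift of less than 1 SD. The causes were not tested. Over canonical transcripts the levels in MB468 at 0 h were 238 (SHMT2), 57.0 (MTHFD2), 38.8 (MTHFD1), 35.4 (MTHFD1L), 30.7 (TYMS), 26.6 (SHMT1), 25.4 (FPGS), and 21.5 (ALDH1L2) CPM per kb, since that length leaves out exons of other transcripts.

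The replicate number as a block changed no member's call (6 between the lines at 0 h, 8 in MB468 and 5 in MB468res-R8 at 12 h, and 6 for the difference at 12 h). Same-numbered libraries did not pair: in no comparison did all pairs correlate over 0.1, and the mean ranged from -0.145 (MB468res-R8 at 12 h) to 0.277 (MB468res-R8 at 2 h). Ratios of the deposited normalized counts could be had only for 0, 2, and 12 h.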
